A study of Mus musculus with 11 samples.

Results

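Klf9 and 4 of its relatives, Klf10, Klf11, Klf13 and Klf16, were followed through RNA sequencing counts of a mouse hippocampal cell line. All belong to the Krüppel-like factor (KLF) family and are among its members known to recruit the corepressor SIN3. Each was found by its RefSeq accession and gene symbol among the 24143 genes of the count table, and a gene with more than 1 row was read from its most abundant row. All 5 were present and all 5 passed the filter on low counts that left 13536 genes for testing. The study asked which genes respond when Klf9 is switched on in HT22 cells, a hippocampal neuronal line immortalized with SV40. The groups were TR/TO-Klf9 cells given doxycycline, TR/TO-Klf9 cells given vehicle, parent HT22 cells given doxycycline and parent HT22 cells given vehicle. TR/TO-Klf9 cells are HT22 cells stably transfected with pCDNA6:TR, which supplies the tetracycline repressor, and with pCDNA4:TO-Klf9, a Klf9 cassette that doxycycline derepresses. Doxycycline was used at 0.5 µg/ml for 8 hours, the vehicle was DMSO, and all groups were treated 24 hours after plating in medium with 10% serum. The stable line was maintained in zeocin and blasticidin, so selection and the line cannot be told apart. The labels do not say whether it is 1 clone.

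Krüppel-like factors bind GC boxes and CACCC elements in promoters through C2H2 zinc fingers at their C-terminus. The 5 proteins carry near their N-terminus a short helix that docks on SIN3, which brings histone deacetylases to the bound promoter and lowers its transcription. They form a pair of branches. Klf9, Klf13 and Klf16, once named basic transcription element binding proteins, include the hormone-responsive member: Klf9 is induced by thyroid hormone and glucocorticoids in brain and is known for its part in the maturation of hippocampal neurons. Klf10 and Klf11, once named TGF-beta-inducible early genes, are rapidly induced by TGF-beta and repress genes such as the inhibitory SMAD gene Smad7.

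The labels named 11 samples, but 2 of their columns, vehicle 3 and doxycycline 1 of the stable line, agreed in every one of 33815 rows. This library stood under opposite labels, could not be assigned, and was left out of the comparisons. They therefore used 1 TR/TO-Klf9 doxycycline library, 2 TR/TO-Klf9 vehicle libraries, 3 parent doxycycline libraries and 3 parent vehicle libraries. Total counts ran from 10302431 to 18902784 per library. Whether replicates came from different cultures is not in the labels, and the p-values then speak only of the scatter among these libraries, which may be technical. In bulk RNA, fewer cells with a transcript and less transcript per cell cannot be told apart. Of 8 neuron markers 5 stayed under 1 CPM (the count scaled to library size by TMM) in each of the 9 libraries, among them Rbfox3, Map2 and Syt1, and the neuronal tubulin gene Tubb3 gave most of the list's level. The summed level of that list was 12.3 CPM in the TR/TO-Klf9 doxycycline library, 17.2 to 20.6 in TR/TO-Klf9 vehicle, 32.0 to 37.9 in parent doxycycline and 33.6 to 34.3 in parent vehicle libraries, and its part in the results was not tested. Fibroblast markers summed to 2447 to 3276 CPM over all libraries, mostly from Col1a1, Col1a2 and Vim. The other 3 differed between the lines under vehicle. Dcn averaged 14.9 CPM in parent and 0.07 in TR/TO-Klf9 cells, Acta2 37.4 and 124.5, and Pdgfrb 36.58 and 65.15. Astrocyte, oligodendrocyte and endothelial lists summed to between 4.14 and 25.1 CPM, with Gfap, Aqp4, Mog and Cldn5 under 1 CPM throughout. The microglia list stood at 12.4 to 14.5 CPM in TR/TO-Klf9 and 1.49 to 2.65 in parent libraries, with Aif1, Cx3cr1 and P2ry12 under 1 CPM in each library.

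In parent HT22 cells given vehicle the TGF-beta-inducible Klf10 was the most abundant of the 5 and its branch partner Klf11 the least. Levels of different genes were compared as CPM per kb of transcript. Klf10 stood at 48.1 ± 1.14 CPM per kb in parent vehicle cells (SD, n = 3), on a 2144 nt transcript, or at 33.9 ± 0.80 on the 3044 nt transcript of its other row. Klf16 followed at 23.8 ± 1.24, Klf9 at 8.59 ± 0.60, Klf13 at 7.75 ± 0.13 and Klf11 at 2.32 ± 0.15 CPM per kb (SD, n = 3 each). Neighbours in this order were well apart except Klf9 and Klf13. The lowest Klf9 library (8.06) lay just above the highest Klf13 library (7.85), a gap smaller than the spread among the Klf9 libraries. TR/TO-Klf9 vehicle cells kept the same order, with Klf9 at 10.3 ± 0.73 and Klf13 at 7.71 ± 0.91 CPM per kb (SD, n = 2 each). In the TR/TO-Klf9 doxycycline library Klf9, at 22.6, stood above Klf16, at 14.1 CPM per kb. That Klf9 value takes reads of the gene and of the cassette together, over the length of the endogenous transcript.

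After doxycycline in TR/TO-Klf9 cells Klf9 rose, Klf13, Klf16 and Klf11 fell, and Klf10 lay within the vehicle range. Klf9 (NM_010638, chromosome 19) stood at 101.44 CPM in the TR/TO-Klf9 doxycycline library, against 48.69 and 44.05 CPM in TR/TO-Klf9 vehicle libraries. It stood at 39.57, 38.08 and 38.36 CPM in parent doxycycline libraries and at 41.43, 36.14 and 38.06 CPM in parent vehicle libraries. The induced library was more than double every other one and was the only library above 50 CPM. The rise was 2.19-fold (log2 1.13 ± 0.08 SE, adjusted p = 7.45e-07 by edgeR's quasi-likelihood test), and 55 of 13536 genes had a larger log2 change. Transcripts of the endogenous gene and of the cassette cannot be told apart in these counts, so the split of this rise between them was not measured. The library under opposite labels held 537 Klf9 counts, or 45.86 CPM, between the TR/TO-Klf9 vehicle libraries.

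**Figure D1:**
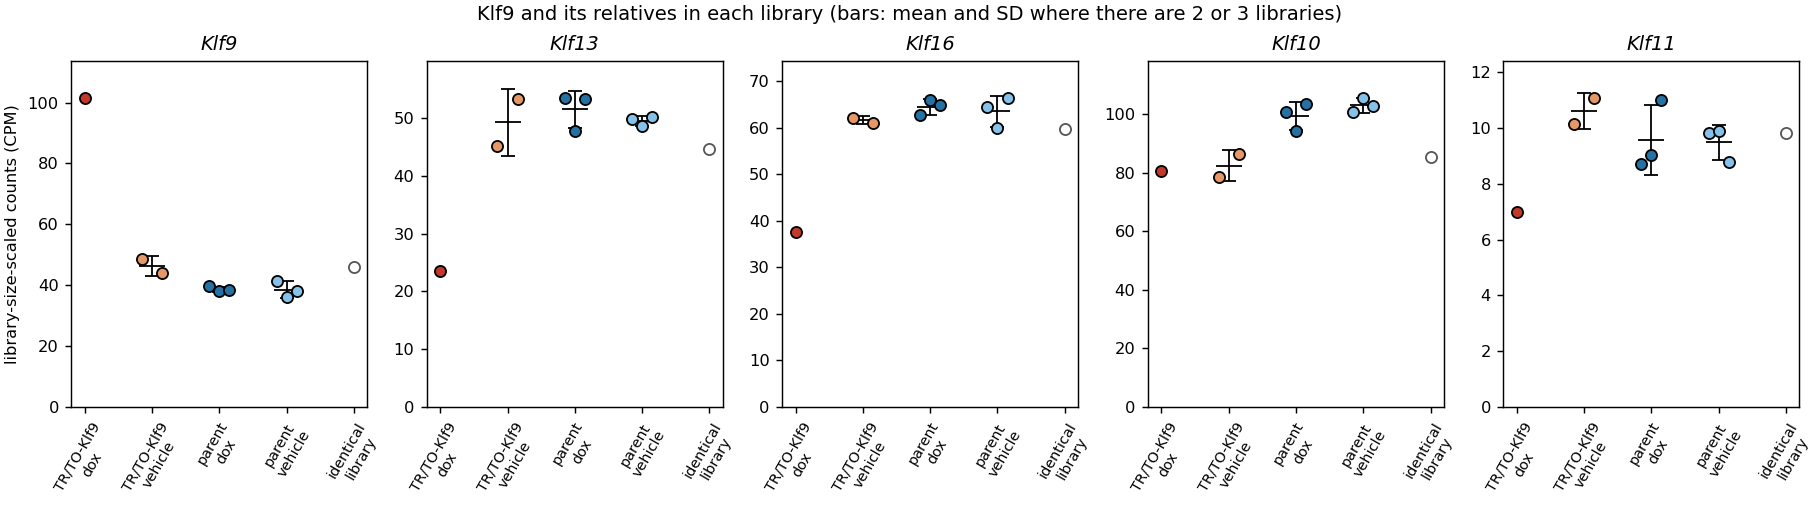
Library-size-scaled counts (CPM, linear axis from 0) of each of the 5 genes in each library, by group; bars give the mean and SD of groups with 2 or 3 libraries, and the open point is the library that stands under opposite labels. In the TR/TO-Klf9 doxycycline library Klf9 is at 101.44 CPM, Klf13 at 23.52 and Klf16 at 37.69, outside the range of all other libraries, while Klf10 at 80.68 lies between the TR/TO-Klf9 vehicle libraries.

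Klf13, the closest relative of Klf9 and known from T cells as an activator of the chemokine gene Ccl5, moved the opposite way. Klf13 (NM_021366, chromosome 7) stood at 23.52 CPM in the TR/TO-Klf9 doxycycline library, against 45.17 and 53.41 CPM in TR/TO-Klf9 vehicle libraries. Parent libraries lay between 47.83 and 53.50 CPM with doxycycline and between 48.62 and 50.21 CPM with vehicle. The induced library was below all the others, and the TR/TO-Klf9 vehicle libraries themselves differed by 0.24 on the log2 scale, the widest such gap among the 5 genes. Klf13 fell by 1.07 on the log2 scale (SE 0.11, adjusted p = 1.48e-05, edgeR), and 365 of 13536 genes had a lower log2 change. The fall was 0.92 without TR/TO-Klf9 vehicle 2 and 1.18 without TR/TO-Klf9 vehicle 1, past the threshold both times.

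Klf16, first described as a regulator of dopamine receptor genes, fell by a smaller factor, with TR/TO-Klf9 vehicle libraries only 0.03 apart on the log2 scale. Klf16 (NM_078477, chromosome 10) stood at 37.69 CPM in the TR/TO-Klf9 doxycycline library, against 62.21 and 60.99 CPM in TR/TO-Klf9 vehicle libraries. Parent libraries lay between 62.67 and 65.96 CPM with doxycycline and between 59.91 and 66.38 CPM with vehicle. The induced library was below all the others, and the other assigned libraries kept between 59.91 and 66.38 CPM. The log2 change was −0.71 ± 0.09 (SE, adjusted p = 5.50e-05, edgeR), and its adjusted p was 0.0575 with the 3 libraries of this line alone in the fit.

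The TGF-beta-inducible pair parted. Klf11 (NM_178357, chromosome 12), the scarcest member, had 91 counts in the TR/TO-Klf9 doxycycline library and 130 and 149 counts in TR/TO-Klf9 vehicle libraries. These correspond to 6.97 CPM (95% exact Poisson interval 5.6 to 8.6, counting error only), against 10.16 and 11.07 CPM. Parent libraries lay between 8.70 and 11.02 CPM with doxycycline and between 8.77 and 9.90 with vehicle, so the induced library was again the lowest, by a smaller margin. The log2 change of −0.61 ± 0.18 (SE) only just passed (adjusted p = 0.0309, edgeR). It did not pass by DESeq2 (adjusted p = 0.117), with the transcript length trend removed (0.063), with the 3 libraries of this line alone (0.28), or without TR/TO-Klf9 vehicle 2 (0.0609) or parent doxycycline 2 (0.0516), while the log2 change stayed between −0.60 and −0.52. Klf10 (NM_001289471, chromosome 15) stood at 80.68 CPM in the TR/TO-Klf9 doxycycline library, against 78.70 and 86.32 CPM in TR/TO-Klf9 vehicle libraries. The groups overlapped, and its log2 change was −0.03 ± 0.08 (SE, adjusted p = 0.812, edgeR).

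Of the 5 genes 3 fell and 1 rose, where 11.4% of all tested genes fell and 6.44% rose (17.8% called in either direction). The median log2 change was −0.61 over the 5 genes and −0.01 over all genes tested. The gene that rose was Klf9, which the cassette supplies, so its call follows from the design. The 5 genes were also chosen with earlier results of these data known, so these counts and this median are descriptive only. The induced library lay outside the TR/TO-Klf9 vehicle libraries for 4 of the 5 genes, 1 higher and 3 lower, but with 1 library against 2 this was so for 75.2% of all genes (36.6% higher, 38.6% lower).

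**Figure D2:**
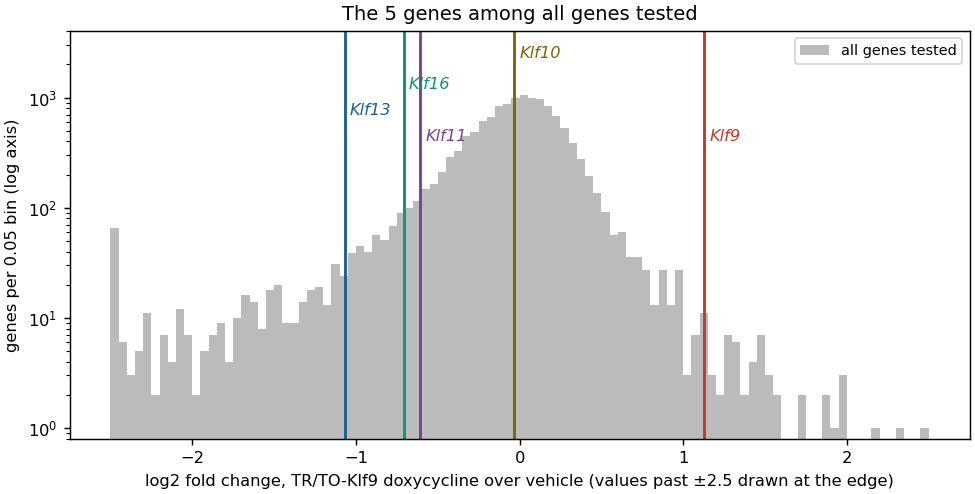
Histogram of the log2 fold change of all 13536 tested genes, TR/TO-Klf9 doxycycline over vehicle (bins of 0.05; the count axis is logarithmic), with the 5 genes as vertical lines. Klf13 (−1.07), Klf16 (−0.71) and Klf11 (−0.61) lie in the lower tail, Klf10 (−0.03) at the centre and Klf9 (1.13) in the upper tail.

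Promoter sequence was at hand for Klf9, Klf11 and Klf13, and is shown with the GC box and CACCC cores that Krüppel-like factors bind. The lines give the 250 bases before the start of each gene, 5′ to 3′ on its own strand, from RefSeq on GRCm38.p6. Capitals mark each GGGCGG or CCGCCC (the GC box core on either strand) and each GGGTG or CACCC (the CACCC core on either strand), and matches may overlap.
Klf13 (chr7:63938916-63939165, minus strand): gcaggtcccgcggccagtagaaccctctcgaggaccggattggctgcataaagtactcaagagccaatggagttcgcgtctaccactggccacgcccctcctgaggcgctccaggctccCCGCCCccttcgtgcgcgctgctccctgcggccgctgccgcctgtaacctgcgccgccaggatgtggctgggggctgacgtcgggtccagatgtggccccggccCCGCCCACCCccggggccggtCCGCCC
Klf11 (chr12:24651121-24651370, plus strand): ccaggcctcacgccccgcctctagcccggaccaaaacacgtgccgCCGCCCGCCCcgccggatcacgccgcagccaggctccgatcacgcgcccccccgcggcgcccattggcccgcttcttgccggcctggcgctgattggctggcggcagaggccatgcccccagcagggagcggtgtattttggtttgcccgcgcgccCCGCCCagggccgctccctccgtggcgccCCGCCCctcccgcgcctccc
Klf9 (chr19:23140976-23141225, plus strand): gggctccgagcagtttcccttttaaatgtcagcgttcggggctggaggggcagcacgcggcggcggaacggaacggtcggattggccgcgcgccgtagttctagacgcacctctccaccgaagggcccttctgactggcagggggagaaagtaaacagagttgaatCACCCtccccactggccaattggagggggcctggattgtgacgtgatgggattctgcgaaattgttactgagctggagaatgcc

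The window of Klf13 held 3 GC box cores and 1 CACCC core, that of Klf11 held 4 and 0, and that of Klf9 held 0 and 1. Of 32817 promoter windows of this length, 32.7% held at least 1 GC box core, 8.5% held 3 or more, and 52.0% held a CACCC core. All 3 windows were rich in G and C, at 71.6% for Klf13, 76.8% for Klf11 and 59.6% for Klf9, beside a median of 52.4%. The shares over all windows were not matched for this content, and the GC box core is made of G and C only. Binding was not measured in these samples, and a match is only a run of letters.

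In parent cells, where no Klf9 cassette is present, doxycycline left the 5 genes within the spread between libraries. None passed by edgeR, DESeq2 or limma-voom, and none had an unadjusted p under 0.05 by edgeR. In that comparison 0.0% of all genes passed by each of these tools, while an unadjusted p under 0.05 was reached by 293 genes with edgeR, 303 with limma-voom and 40 with DESeq2. The log2 changes were −0.01 ± 0.07 for Klf9, 0.06 ± 0.07 for Klf13, 0.02 ± 0.05 for Klf16, −0.05 ± 0.05 for Klf10 and 0.01 ± 0.12 for Klf11 (SE). The parent doxycycline and parent vehicle libraries overlapped for all 5 genes, while they did not overlap for 9.72% of all genes (3.92% higher and 5.8% lower with doxycycline).

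The doxycycline effect itself differed between the lines for Klf9, which the cassette supplies, and for Klf13 and Klf16. The difference, TR/TO-Klf9 minus parent, was 1.14 ± 0.11 on the log2 scale for Klf9 (SE, adjusted p = 1.01e-05, edgeR). It was −1.12 ± 0.13 for Klf13 (adjusted p = 8.78e-05) and −0.73 ± 0.10 for Klf16 (adjusted p = 3.27e-04). For Klf11 it was −0.62 ± 0.22 and did not pass (adjusted p = 0.0853), and for Klf10 it was 0.02 ± 0.09 (adjusted p = 0.944). These 2 lower and 1 higher calls compare with 6.92% and 2.75% of all genes (9.67% in either direction).

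**Figure D3:**
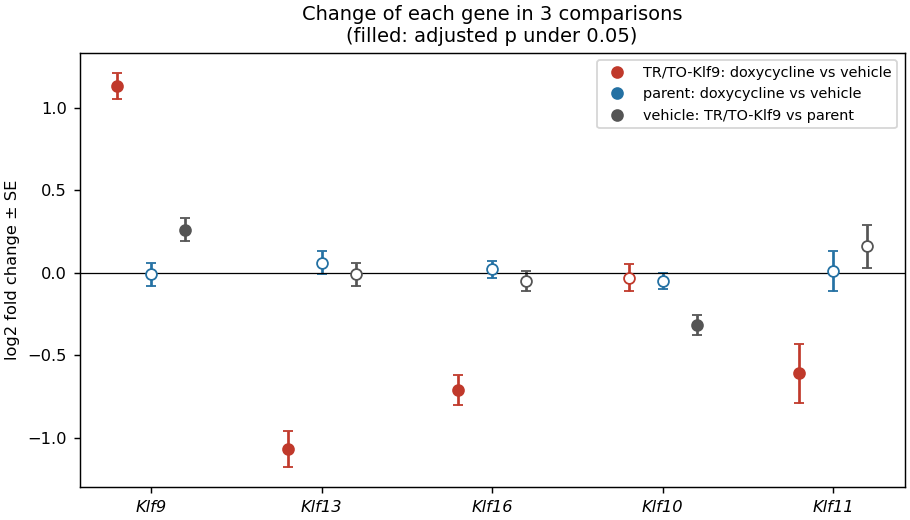
Log2 fold change with its SE for each of the 5 genes (vertical axis) in TR/TO-Klf9 doxycycline against vehicle, parent doxycycline against vehicle, and TR/TO-Klf9 vehicle against parent vehicle; filled points passed an adjusted p of 0.05. Klf9 (1.13), Klf13 (−1.07), Klf16 (−0.71) and Klf11 (−0.61) are filled for doxycycline given to the stable line, and no point is filled for doxycycline given to parent cells.

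Before any doxycycline, the stable line already had more Klf9 and less Klf10 than the parent line, while Klf13, Klf16 and Klf11 did not pass. Klf9 averaged 46.4 ± 3.28 CPM (SD, n = 2) in TR/TO-Klf9 vehicle cells and 38.5 ± 2.68 CPM (SD, n = 3) in parent vehicle cells, a log2 difference of 0.26 ± 0.07 (SE, adjusted p = 0.00865, edgeR). The groups did not overlap for Klf9 and Klf11 (higher) or Klf10 (lower), as for 27.9% and 27.3% of all genes (55.2% in all). With the library of opposite labels counted as doxycycline, the Klf9 difference was 0.25 and did not pass (adjusted p = 0.587, edgeR). With that library under both labels it was 0.26 and did not pass either (adjusted p = 0.473, edgeR). Without TR/TO-Klf9 vehicle 1 the Klf9 difference was 0.18 with an adjusted p of 0.0858. Klf10 averaged 82.5 ± 5.39 CPM (SD, n = 2) in TR/TO-Klf9 vehicle cells and 103 ± 2.44 CPM (SD, n = 3) in parent vehicle cells, a log2 difference of −0.32 ± 0.06 (SE, adjusted p = 3.22e-04). In each fit tried, the Klf10 difference passed and stayed between −0.39 and −0.25. Klf13 differed by −0.01 ± 0.07, Klf16 by −0.05 ± 0.06 and Klf11 by 0.16 ± 0.13 (SE; adjusted p = 0.944, 0.541 and 0.344). Lines differed at 38.9% of all genes, 18.8% higher and 20.1% lower in TR/TO-Klf9, so 2 calls among 5 genes are near that background. The TR/TO-Klf9 vehicle libraries also serve as the baseline of the doxycycline comparison. TGF-beta pathway genes also differed between the lines under vehicle, 5 of 11 higher and 2 lower, and their part in the level of Klf10 was not tested.

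Within the stable line the summed level of the 5 genes was slightly lower with doxycycline than with vehicle, while its makeup differed. Summed over the 5 genes, the TR/TO-Klf9 doxycycline library held 79.7 CPM per kb, against 80.4 and 84.0 in TR/TO-Klf9 vehicle libraries. Parent libraries held 86.8 to 92.1 CPM per kb with doxycycline and 89.7 to 91.3 with vehicle.  Klf9 made up 28.4% of that sum in the TR/TO-Klf9 doxycycline library, against 13.5% and 11.7% in TR/TO-Klf9 vehicle libraries and 9.0% to 10.2% in parent libraries. Klf13 made up 4.6%, against 8.8% and 9.9%, and Klf16 17.7%, against 28.9% and 27.2%, in the same libraries of the stable line. The ratio of Klf9 to Klf13 per kb was 6.15 in the TR/TO-Klf9 doxycycline library, against 1.54 and 1.18 in TR/TO-Klf9 vehicle libraries, and 1.03 to 1.18 in parent libraries. These shares use the length of the endogenous transcripts, and the length of the cassette transcript is not given in the sources used here. For Klf10 they use the 2144 nt transcript. With the 3044 nt transcript of its other row, the sums and the Klf10 share would be lower and the other shares higher.

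**Figure D4:**
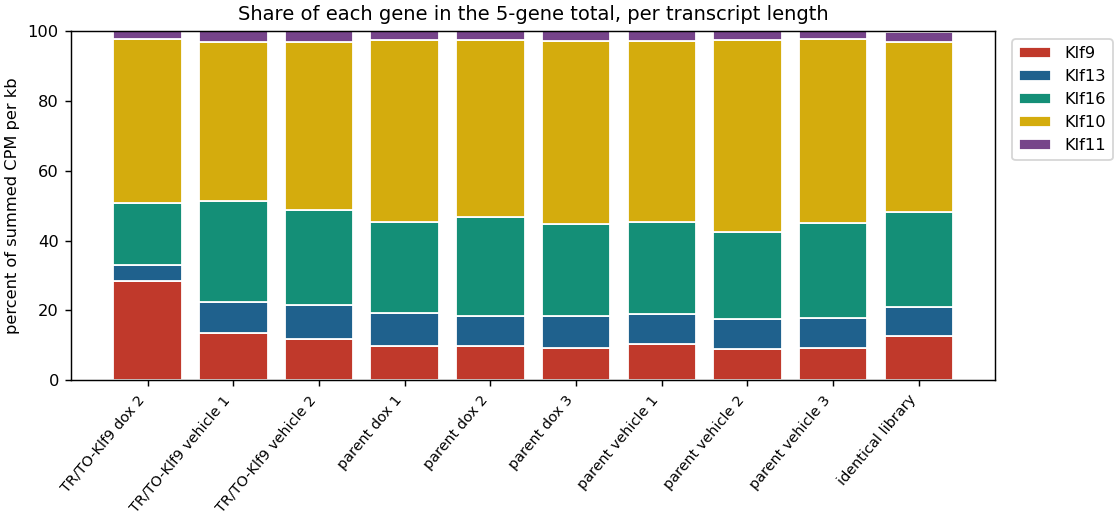
Stacked bars of the share of each gene in the summed CPM per kb of the 5 genes (percent, axis from 0 to 100), 1 bar per library, with the library under opposite labels at the right. Klf9 takes 28.4% in the TR/TO-Klf9 doxycycline library and 9.0% to 13.5% in the other assigned libraries, and Klf10 is the largest share in each library.

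Each change in TR/TO-Klf9 cells rests on 1 doxycycline library, whose spread was taken from the other groups. The chi-square over degrees of freedom between 2 libraries is near 1 where they differ by counting alone. It was 7.595 between the TR/TO-Klf9 vehicle libraries, 0.953 to 1.027 among parent doxycycline and 1.501 to 5.763 among parent vehicle libraries. The pooled spread, and the SE and p-values from it, may therefore be too small for the lone TR/TO-Klf9 doxycycline library. Klf9 and Klf13 passed in each fit that kept that library apart, and with the library of opposite labels counted as vehicle the log2 changes were 1.15 for Klf9, −1.01 for Klf13, −0.68 for Klf16 and −0.55 for Klf11, all past the threshold. With it counted as doxycycline, or under both labels, none of the 5 genes passed, and Klf9 stood at 0.69 and 0.68 and Klf13 at −0.53 and −0.49. In the unassigned library Klf13 stood at 44.75, Klf16 at 59.78, Klf10 at 85.57 and Klf11 at 9.82 CPM. With the trend of each library on transcript length removed, Klf13 moved to −0.88, Klf16 to −0.73 and Klf9 to 1.21. The transcripts measured 6396 nt for Klf13, 2674 nt for Klf16, 4486 nt for Klf9 and 4086 nt for Klf11.

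**Figure D5:**
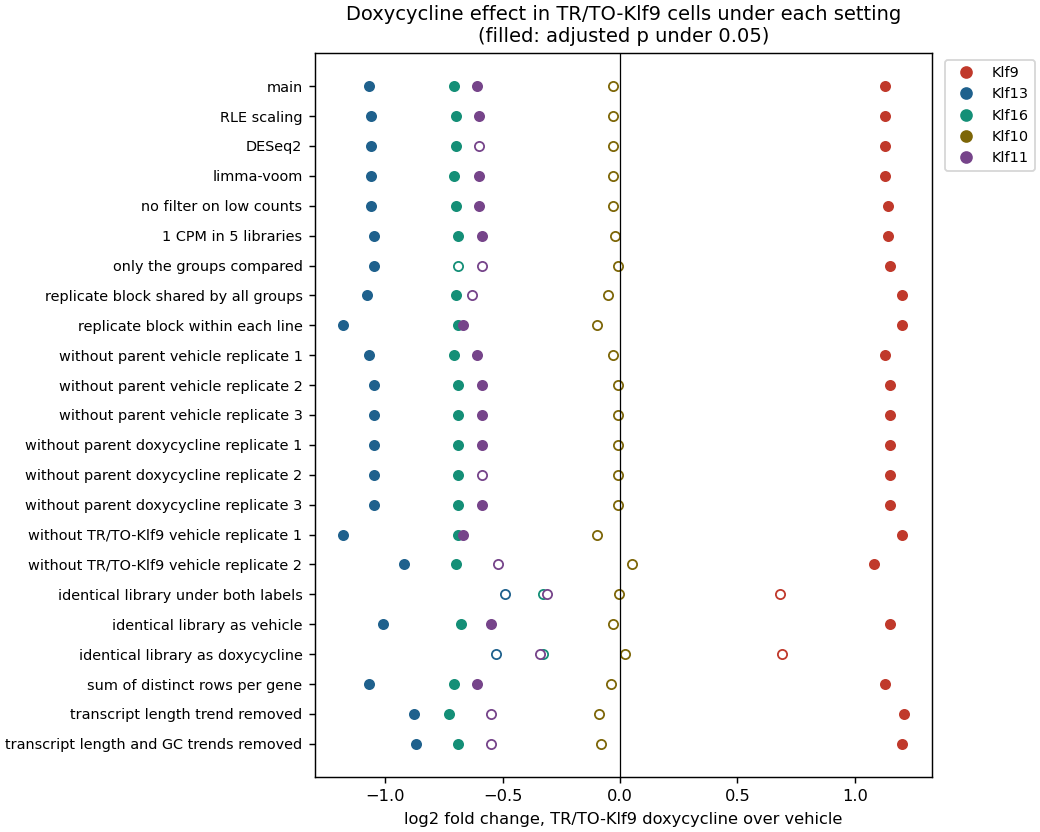
Log2 fold change of each of the 5 genes, TR/TO-Klf9 doxycycline over vehicle (horizontal axis), under each setting tried (rows); filled points passed an adjusted p of 0.05. The points stay near the main values except with the library of opposite labels placed in the doxycycline group, where Klf9 is at 0.69 or 0.68 and no point is filled.

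Genes of the machinery that these factors recruit were called about as often as genes at large with doxycycline in TR/TO-Klf9 cells. Of 20 tested genes of the SIN3 and histone deacetylase complex 2 fell and 1 rose, where 11.4% of all genes fell and 6.44% rose. The list median was −0.04, against −0.01 for all genes. The scaffold gene Sin3a, whose product docks the KLF helix, stood at 110 CPM in the TR/TO-Klf9 doxycycline library and 133 ± 3.11 CPM in TR/TO-Klf9 vehicle libraries (SD, n = 2), a log2 change of −0.27 ± 0.07 (SE, adjusted p = 0.0111, edgeR). Its paralog Sin3b stood at −0.21 ± 0.08 (adjusted p = 0.0812). The histone demethylase gene Kdm5a fell by 0.39 (SE 0.08) and the adaptor gene Sap30 rose by 0.36 (SE 0.11), and with the length trend removed Sin3a, Kdm5a and Sap30 did not pass (adjusted p = 0.151, 0.701 and 0.165). In that fit 1 gene of the complex passed, the SIN3-associated Sap18 at 0.36 ± 0.10 (adjusted p = 0.0368), which without that correction stood at 0.24 ± 0.11 (adjusted p = 0.135).

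Among receptors and early targets of the hormones that induce Klf9, 2 of 11 tested genes fell and none rose, near the 11.4% and 6.44% of all genes. The thyroid hormone receptor gene Thra stood at 34.0 CPM in the TR/TO-Klf9 doxycycline library and 50.04 ± 2.57 CPM in TR/TO-Klf9 vehicle libraries (SD, n = 2), a log2 change of −0.56 ± 0.09 (SE, adjusted p = 5.73e-04, edgeR). Thra also passed with the length trend removed (−0.61, adjusted p = 3.82e-04) and in the difference between lines (−0.54 ± 0.11, adjusted p = 0.00487). The clock gene Per1, an early glucocorticoid target, fell by 0.50 (SE 0.12, adjusted p = 0.00944). Per1 stood at 23.8 CPM in the TR/TO-Klf9 doxycycline library, 33.8 ± 2.99 CPM in TR/TO-Klf9 vehicle libraries (SD, n = 2) and 23.2 ± 1.79 CPM in parent vehicle libraries (SD, n = 3). Under vehicle the stable line exceeded the parent line (0.53 ± 0.09, adjusted p = 1.30e-04), and its difference of doxycycline effects between lines did not pass (−0.43 ± 0.15, adjusted p = 0.0765). The glucocorticoid receptor gene Nr3c1 stood at −0.21 ± 0.07 and did not pass (adjusted p = 0.0599).

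On the TGF-beta side, 1 of 11 tested genes fell, near the 11.4% of all genes, and it was Smad2 at −0.22 ± 0.06 (adjusted p = 0.0266, edgeR), and none passed with the length trend removed. Smad7, a known target of Klf10 and Klf11, stood at −0.21 ± 0.08 (adjusted p = 0.0747). Of the other KLF and SP genes 11 of 21 were tested, 4 fell and none rose (11.4% and 6.44% of all genes), with a list median of −0.26, against −0.01 for all genes. They were led by Klf7 at −1.03 ± 0.14 (adjusted p = 1.77e-04), and with the length trend removed only Klf7 passed.

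Likeness between profiles was taken as the root-mean-square difference of centred log2 CPM over the 9 libraries, among 10140 named genes averaging at least 5 CPM, so libraries of a line and their depth are shared by all points. The nearest to Klf9 were Tctn2, Ccdc189 and Snhg10, at 0.176 to 0.192, with log2 changes of 0.58, 0.63 and 0.48 after doxycycline in TR/TO-Klf9 cells. The nearest to Klf13 were Rest, Vav2 and Acaca, at 0.058 to 0.068, and the nearest to Klf16 were Slc22a5, Dst and Clip2, at 0.036 to 0.048. For Klf10 they were Sgcd, Ggta1 and Taf2, at 0.028 to 0.033, and for Klf11 Lzts3, Ptchd4 and Mdm4, at 0.074 to 0.077. Only for Klf10 and Klf11 did any of the 3 nearest genes also rank in the first 3 by Pearson correlation, 2 and 1 of them.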

How the data were processed

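Counts were measured in 11 HT22 samples by sequencing of total RNA with oligo-dT-primed libraries, per the labels' protocols. The authors deposited whole-number read counts per RefSeq transcript, with no normalization, as the values show. The tools listed per the submitters' processing notes are DESeq, Bowtie, FastQC and CASAVA, and the build is mm8; no source used here gives the counting program or strand. In GENCODE M21 no exon of the 5 genes overlaps another gene.

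Of 32923 accessions 32500 matched a symbol in a GRCm38.p6 table. Genes were filtered with filterByExpr, given TMM factors and fitted with edgeR 4.0.16, R 4.3.3 (glmQLFit, robust, 4 group means, 9 libraries, 5 residual degrees of freedom), with Benjamini-Hochberg adjustment over 13536 genes and a threshold of 0.05. SE is the log2 change over the root of F. Alternatives used DESeq2 1.42.0 and limma 3.58.1. Transcript lengths, from GENCODE M21, covered 97.9% of tested genes; loess trends had a span of 0.4. The fit was also run on simulated counts with the same dispersion in every group, so that run could not test the unequal spread among these libraries. Likeness used log2(CPM + 0.5). Figures used matplotlib 3.10.9.

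The members and lists were chosen with earlier results of these data known. A further gene list is not reported here. Named genes are the 5 members, up to 4 past the threshold per list, 5 set receptors, scaffolds and targets at any p, and the 3 nearest profiles per member. The counts of the 3 parent doxycycline libraries agree to about sampling noise. Their chi-square over degrees of freedom was 0.953 for 2 and 3, 1.007 for 1 and 2, and 1.027 for 1 and 3. Libraries 2 and 3 differ in 23276 rows and 1 and 2 in 23165, so none is a copy. A parent pair of opposite treatment was almost as close (1.037), and all 3 were kept as separate samples. Whether they are technical repeats is not in the labels.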

Additional observations from a re-analysis of the deposited data

Results flagged for a closer look

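The doxycycline effect differed between TR/TO-Klf9 and parent cells for 3 of the 5 genes, by a test of the difference itself in the edgeR fit of 9 libraries. The difference was 1.14 for Klf9, −1.12 for Klf13 and −0.73 for Klf16 on the log2 scale. For each of them the TR/TO-Klf9 side rests on 1 doxycycline library, and with the library of opposite labels counted as doxycycline the differences were 0.69, −0.59 and −0.35 and did not pass (adjusted p = 0.652, 0.609 and 0.609).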

How the results depend on the processing

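For doxycycline in TR/TO-Klf9 cells, 4 of the 5 genes passed; the number was 2 with only the groups compared and 0 with the library of opposite labels as doxycycline or under both labels. Leaving out 1 library gave 3 to 4. For the difference between lines it was 3, 0 in both of these cases, and 3 to 3 with 1 library left out. For the lines under vehicle it was 2, 1 in both of these cases, and 1 to 2 with 1 library left out.

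Over all genes, doxycycline in TR/TO-Klf9 cells called 2410 genes (872 up, 1538 down). The count was 1319 by DESeq2 (244 up, 1075 down), 73 with only the groups compared (1 up), 1479 with the length trend removed (586 up) and 1435 with length and GC trends removed, the last chosen after seeing the data. It was 0 by edgeR with the library of opposite labels as doxycycline or under both labels (2044 and 1480 genes at an unadjusted p under 0.05; DESeq2 was not run there), and 1890 to 3800 with 1 library left out, highest without TR/TO-Klf9 vehicle 2. The difference called 1309 genes, 716 by DESeq2, 594 and 605 with the trends removed, 0 in both placements of that library (1073 and 654 at an unadjusted p under 0.05), and 571 to 2910 with 1 library left out, highest without TR/TO-Klf9 vehicle 2 and lowest without parent doxycycline 3. Leaving out the lone TR/TO-Klf9 doxycycline library leaves no such comparison, and the difference has no value with only the groups compared. The cause was not tested.

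Whether the replicate numbers pair the samples was not settled. Same-numbered parent libraries deviated with correlations of −0.055, −0.004 and 0.015, and differently numbered ones with −0.078 to 0.08. Parent doxycycline libraries differed by about counting noise, so these correlations could hardly show a pairing. Libraries of the stable line were not compared in this way. A block within each line sets the TR/TO-Klf9 doxycycline library against TR/TO-Klf9 vehicle 2 alone. With it the log2 changes in TR/TO-Klf9 cells were 1.20 for Klf9, −1.18 for Klf13, −0.69 for Klf16 and −0.67 for Klf11. With the number as a block shared by all groups, 1381 genes were called in TR/TO-Klf9 cells and 607 for the difference, and Klf11 did not pass (adjusted p = 0.0655).

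Signs turned only for values near 0. Klf10 stood at 0.02 in TR/TO-Klf9 cells with the library of opposite labels as doxycycline, and between −0.10 and 0.05 with 1 library left out. For the difference it stood at −3.60e-04 and −0.05 with a shared or within-line replicate block and at −0.04 with either trend removed (−0.05 to 0.10 with 1 library left out). Klf9 in parent cells stood at 0.0029 by DESeq2 and at 0.003 and 8.20e-05 with these blocks (−0.05 to 0.06 with 1 library left out). Klf13 between lines stood at 0.0063 with the shared block and at 0.03 and 0.02 with the trends removed (−0.15 to 0.11 with 1 library left out). In parent cells Klf16 ranged from −0.02 to 0.05 and Klf11 from −0.10 to 0.08 with 1 library left out.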
